A study of Drosophila melanogaster with 15 samples.

Results

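The cytosolic ribosomal protein genes of Drosophila melanogaster encode the protein components of the ribosome that translates nuclear-encoded mRNA. They were taken here as all genes whose FlyBase symbol begins with RpL or RpS and a digit, together with RpLP0, RpLP1, RpLP2 and sta. Of 15139 genes listed in the files, 92 had such a symbol, and 85 of them reached a mean of at least 1 RPKM over the libraries, the level required of the 7485 genes compared. RPKM is the read count scaled to transcript length in kilobases and to the library total. The 85 genes comprised 50 of the large and 35 of the small subunit, with 15 on the X chromosome, 1 on chromosome 4 and 69 on the other autosomal arms, counting 18 on 2L, 18 on 2R, 14 on 3L and 19 on 3R.

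The libraries came from SL2 cells, a male Drosophila line, kept for 6 days at 25 °C under RNA interference (RNAi). One library was made after CLAMP RNAi, one after MSL2 RNAi and one after control RNAi, whose target the labels do not give. The 12 immunoprecipitation and input samples of the same series were not analysed here. The study used these mRNA libraries to ask how CLAMP, a zinc-finger protein that binds GA-rich DNA, affects genes on the X chromosome. MSL2 is a subunit of the MSL complex, which raises transcription of the male X chromosome.

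A ribosome holds most of these proteins in a single copy each, so their genes are transcribed at high and similar rates although they are scattered over all chromosomes. In flies, loss of a single gene copy of many of them gives the dominant Minute phenotype of slow growth and thin bristles. Their transcripts are short and start at a pyrimidine-rich initiator, and their transcription has been tied in flies to the TBP-related factor Trf2. In a male cell the X-linked members are present in a single copy and are targets of dosage compensation, whereas the autosomal members have a pair of copies.

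With 1 library per group there was no replicate check and no test was possible. Ratios are given with exact 95% intervals from the read counts, which cover counting error only. In bulk RNA, fewer cells expressing a gene and less RNA per cell cannot be told apart. Library totals were 68301197 reads after CLAMP RNAi, 67844405 after MSL2 RNAi and 68036170 in control. Clamp itself was at 19.8 RPKM after CLAMP RNAi and 66.9 after MSL2 RNAi, against 66.2 in control. The msl-2 transcript was at 19.4 RPKM after CLAMP RNAi and 5.16 after MSL2 RNAi, against 19.8 in control, so each target was lowest in the library named for it. Of 9 markers of hemocytes, the blood cells that SL2 cells resemble, 8 were above the level threshold, with srp at 91.7, 87.2 and 83.3 RPKM after CLAMP RNAi, after MSL2 RNAi and in control.

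Ribosomal protein transcripts held 13919077 reads after CLAMP RNAi, 13470735 after MSL2 RNAi and 12862181 in control. As a share of the library total this was 20.4% (exact 95% interval 20.37 to 20.39) after CLAMP RNAi and 19.9% (19.85 to 19.86) after MSL2 RNAi, against 18.9% (18.90 to 18.91) in control. The share was highest after CLAMP RNAi and lowest in control, and the counting intervals did not overlap.

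The median member was at 2911 RPKM after CLAMP RNAi, 2705 after MSL2 RNAi and 2614 in control. All 7485 genes together had medians of 20.4, 20.3 and 21.6 RPKM in the same libraries. Averaged over the libraries, 74 members reached 1000 RPKM, 8 lay from 300 to under 1000 and 3 lay below 300. Only 26 other genes reached 1000 RPKM, and 74 of the 100 most abundant transcripts were members. Small-subunit members had medians of 3104 RPKM after CLAMP RNAi and 3031 after MSL2 RNAi, against 2840 in control, and large-subunit members had 2722 and 2565, against 2484 in control.

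RpL5, which carries 5S rRNA into the large subunit, was the most abundant member in the MSL2 RNAi and control libraries, at 8914 and 9811 RPKM, and stood at 7742 RPKM after CLAMP RNAi. The X-linked sta, the small-subunit protein related to the laminin receptor, was highest after CLAMP RNAi, at 8626 RPKM, against 6425 RPKM after MSL2 RNAi and 7319 RPKM in control. At the other end were RpL7-like, RpS15Ab and RpS19b, all lesser copies of a more abundant gene. RpS19b was the member nearest to the threshold from above, with a mean of 4.62 RPKM, and RpS5b, at 0.610, and RpS10a, at 0.442, were the nearest below it. The 7 members below the threshold were RpS5b, RpS10a, RpL22-like, RpL37-2, RpL10Aa, RpS28a and RpS28-like, all autosomal.

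**Figure D1:**
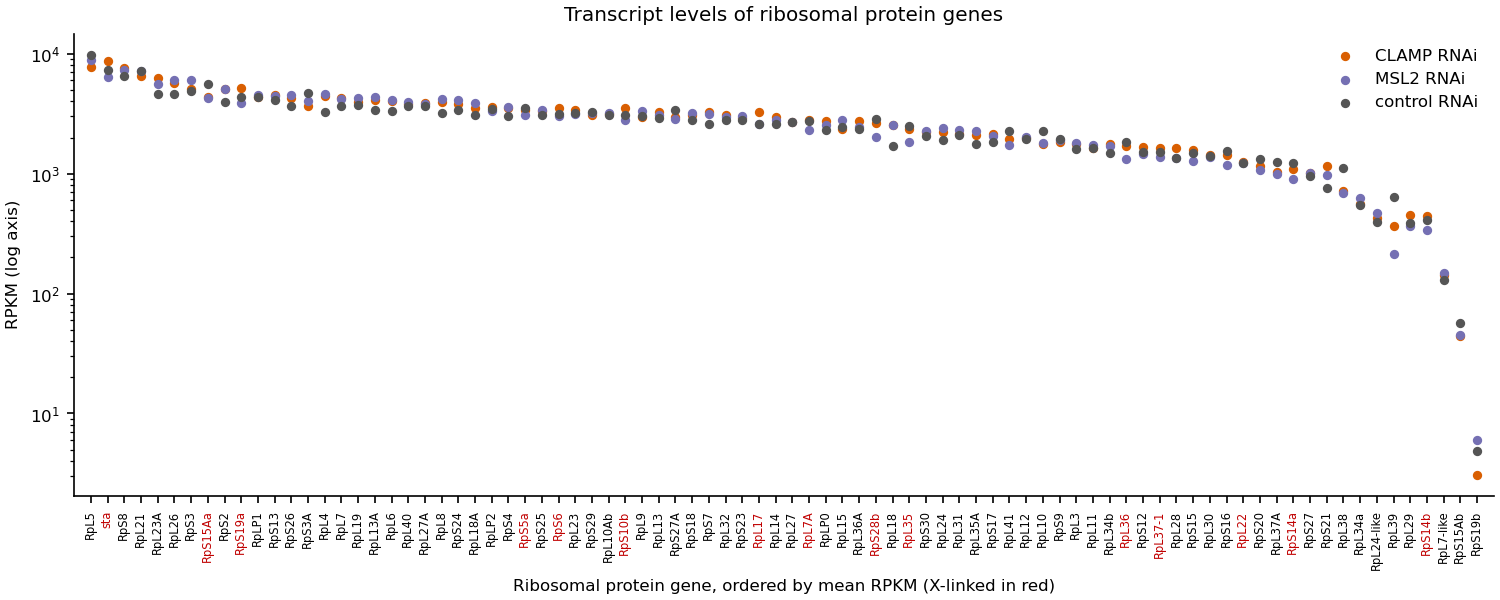
RPKM (log axis) of the ribosomal protein genes, with 1 of the 85 left out, in the CLAMP RNAi, MSL2 RNAi and control RNAi libraries, 1 point per library, ordered by mean RPKM with X-linked symbols in red. The 3 points of most genes lie close together, most genes lie at or above a mean of 1000 RPKM, and RpL39, RpL38 and RpS21 are among the genes whose points are spread.

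The first comparison asked which ribosomal protein transcripts differed after CLAMP RNAi. The median log2 ratio of CLAMP RNAi over control, taken on RPKM + 0.1, was 0.10 over the 85 members and -0.06 over all compared genes. Above 0 were 60 members, where 37.3% of all compared genes were, and below 0 were 25, where 62.7% were. The lower and upper quartiles of the members were -0.06 and 0.22. The other genes with at least 300 RPKM had a median of 0.04, and the other genes in the top decile by level, which holds 83 of the 85 members, had 0.03.

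RpS21 was the member with the highest ratio of CLAMP RNAi over control and the only one at least 1.5-fold higher, where 1.5% of all compared genes were. This small-subunit protein had 53613 reads after CLAMP RNAi and 44276 after MSL2 RNAi, against 34943 in control. Its CLAMP RNAi over control ratio was 1.53 (1.51 to 1.55). RpL18 followed with 126725 reads after CLAMP RNAi and 127308 after MSL2 RNAi, against 84626 in control, a CLAMP RNAi over control ratio of 1.492 (1.479 to 1.505). For RpL18 the libraries of both knockdowns were alike and above control, while RpS21 was in between after MSL2 RNAi. RpL23A, RpL4 and RpS2 were also among the 6 highest, with log2 ratios of 0.45, 0.44 and 0.35.

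At least 1.5-fold lower after CLAMP RNAi than in control were RpL39, RpL38 and RpS19b, 3 of 85 members, where 3.86% of all compared genes were. RpL39, a very small protein that lines the exit tunnel for the growing peptide, had 7256 reads after CLAMP RNAi and 4209 after MSL2 RNAi, against 12660 in control. The CLAMP RNAi over control ratio was 0.571 (0.555 to 0.588). RpL38, known in mouse for its part in translating Hox mRNAs, had 19555 reads after CLAMP RNAi and 18866 after MSL2 RNAi, against 30470 in control, and a CLAMP RNAi over control ratio of 0.639 (0.628 to 0.651). RpS19b had only 141 reads after CLAMP RNAi and 271 after MSL2 RNAi, against 220 in control, and its interval was wide, at a CLAMP RNAi over control ratio of 0.638 (0.513 to 0.792). RpL39 and RpL38 were below control in both knockdowns, whereas RpS19b was below control after CLAMP RNAi and above it after MSL2 RNAi. RpS19b was no longer 1.5-fold lower with a pseudocount of 1, at a log2 ratio of -0.51, or with TMM or DESeq2 scaling, at -0.57 in each. At 2-fold no member was lower, where 1.16% of all compared genes were, and none was higher, where 0.588% were. RpS3A, RpS15Ab and RpL10 completed the 6 lowest, with log2 ratios of -0.38, -0.38 and -0.37.

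The second comparison asked the same of MSL2 RNAi, against the same control library. The median log2 ratio of MSL2 RNAi over control was 0.07 over the members and -0.02 over all compared genes, with 51 members above 0, where 46.6% of all compared genes were, and 34 below, where 53.4% were. The other genes with at least 300 RPKM had a median of 0.06, and the rest of the top decile had 0.06. Relative to all compared genes of the same decile, the members' median was 0.0096. RpL39 and RpL38 were at least 1.5-fold lower after MSL2 RNAi than in control, 2 of 85 members, where 5.32% of all compared genes were. The ratio for RpL39 was 0.333 (0.322 to 0.345), the only one of a member past 2-fold, where 0.975% of all compared genes were 2-fold lower. For RpL38 it was 0.621 (0.610 to 0.632). The other 4 of the 6 lowest were the X-linked RpL36, RpS28b, RpL35 and RpS14a, at log2 ratios from -0.49 to -0.42.

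RpL18 alone was at least 1.5-fold higher after MSL2 RNAi, at a ratio of 1.509 (1.496 to 1.522), where 2.53% of all compared genes were, and no member was 2-fold higher, where 0.588% were. RpL4 had 442112 reads after CLAMP RNAi and 454571 after MSL2 RNAi, against 325732 in control, and a MSL2 RNAi over control ratio of 1.40 (1.39 to 1.41). RpL26, RpL8, RpS2 and RpL13A followed, at log2 ratios of 0.39, 0.38, 0.37 and 0.36. All 6 of these are autosomal, and their levels after CLAMP RNAi were also above control, at log2 ratios from 0.27 to 0.58. Because both ratios share the control library, a high or low control value enters each of them.

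The third comparison set MSL2 RNAi over CLAMP RNAi and does not use the control library. Its median log2 ratio was -0.03 over the members and 0.05 over all compared genes, and 40 members were above 0, where 58.5% of all compared genes were, and 45 below, where 41.5% were. RpL39 was the only member at least 1.5-fold lower, where 3.62% of all compared genes were, at a ratio of 0.584 (0.562 to 0.607). RpS19b was the only one at least 1.5-fold higher, where 4.24% of all compared genes were, at a ratio of 1.93 (1.57 to 2.39). No member was 2-fold lower, where 1.11% of all compared genes were, or 2-fold higher, where 1.66% were. The next 5 lowest were sta, RpS19a, RpS28b, RpS14b and RpL36, at log2 ratios from -0.42 to -0.38, and all 5 are X-linked. RpS3, RpL15, RpL5, RpL9 and RpL34a were the next 5 highest, at log2 ratios from 0.24 to 0.17, and all 5 are autosomal.

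The X-linked members are those that dosage compensation acts on in a male cell. After CLAMP RNAi their median log2 ratio over control was 0.05, against 0.10 for the autosomal members, a difference of -0.06 that was -0.0019 without members of paralog pairs. Over all compared genes the X chromosome and the autosomes differed by 0.00, and over other genes with at least 300 RPKM by -0.13. After MSL2 RNAi the median of the X-linked members was -0.19 and that of the autosomal members 0.12, a difference of -0.30 and a ratio of 0.810. All compared genes gave a difference of -0.36 and a ratio of 0.781, and other genes with at least 300 RPKM gave -0.35. In MSL2 RNAi over CLAMP RNAi the X-linked members were at -0.32 and the autosomal members at 0.01, a difference of -0.34, where all compared genes gave -0.35 and other genes with at least 300 RPKM gave -0.28.

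All 15 X-linked members lay below the autosomal median of compared genes in MSL2 RNAi over control, where 91.5% of X-linked compared genes did. In MSL2 RNAi over CLAMP RNAi all 15 did so too, where 90.2% of X-linked compared genes did, and in CLAMP RNAi over control 6 did, where 49.8% did. These counts were near the shares for the X chromosome as a whole. Below 0 were 13 of the 15 in MSL2 RNAi over control, where 89.7% of X-linked compared genes were, and the pair that was not below 0 was RpL17, at 0.00, and RpL22, at 0.02. In MSL2 RNAi over CLAMP RNAi all 15 were below 0, where 85.4% of X-linked compared genes were, and in CLAMP RNAi over control 6 were, where 62.4% were.

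**Figure D2:**
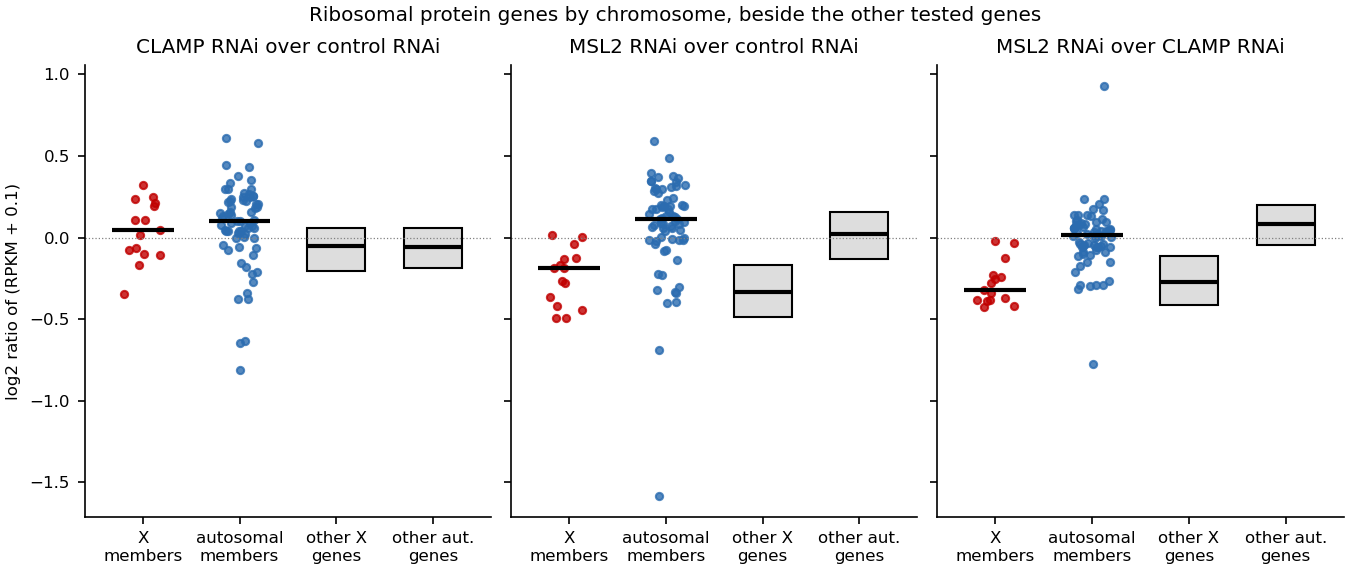
Log2 ratios of RPKM + 0.1 in the 3 comparisons, with 1 point per X-linked (15) or autosomal (69) ribosomal protein gene, a bar at the median, and boxes from the lower to the upper quartile with the median for the other X-linked and autosomal genes. In both comparisons of MSL2 RNAi the X-linked points lie mostly below the autosomal ones, and in CLAMP RNAi over control the sets of points overlap.

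In absolute level the X-linked members had a median of 2787 RPKM after CLAMP RNAi and 2300 after MSL2 RNAi, against 2760 in control. The autosomal members had 2911 after CLAMP RNAi and 2787 after MSL2 RNAi, against 2579 in control. Divided by the autosomal median, the X-linked median came to 0.957 after CLAMP RNAi and 0.825 after MSL2 RNAi, against 1.07 in control, so the quotient was lowest after MSL2 RNAi. Without members of paralog pairs it was 1.02 and 0.837, against 0.974 in control, so the order of the CLAMP RNAi and control libraries depended on those members. After CLAMP RNAi it was also above 1 with the longest transcript of each gene, at 1.01, and with no level filter, at 1.06. Leaving out the filter adds only the 7 autosomal members below the threshold, so a higher quotient was built into that setting. For the other compared genes the quotient came to 0.934 and 0.751, against 0.943 in control. Of all reads on ribosomal protein transcripts, the X-linked members took 21.0% after CLAMP RNAi and 17.5% after MSL2 RNAi, against 21.2% in control.

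The ratios of the X-linked members differed from gene to gene. The range between quartiles of MSL2 RNAi over control was 0.27 for them, 0.25 for autosomal members and 0.32 for other X-linked genes. In MSL2 RNAi over CLAMP RNAi it was 0.15, 0.14 and 0.30, and in CLAMP RNAi over control 0.29, 0.23 and 0.26. After MSL2 RNAi the lowest ratios over control were those of RpL36, at 0.712 (0.704 to 0.720), and RpS28b, at 0.712 (0.705 to 0.719). RpL36 was at 1713 RPKM after CLAMP RNAi and 1314 after MSL2 RNAi, against 1846 in control. RpS28b, a small protein at the mRNA exit, was at 2649 RPKM after CLAMP RNAi and 2022 after MSL2 RNAi, against 2840 in control. RpL35, which sits at the tunnel exit, and RpS14a had log2 ratios over control of -0.45 and -0.42. These 4 were lowest after MSL2 RNAi and slightly lower after CLAMP RNAi than in control, at log2 ratios of CLAMP RNAi over control from -0.17 to -0.08.

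Another 7 X-linked members were higher after CLAMP RNAi than in control and lower after MSL2 RNAi than in control. They were sta, RpS19a, RpS10b, RpS6, RpL37-1, RpS14b and RpL7A. RpL7A was close to control after CLAMP RNAi, at a log2 ratio of 0.01, and RpS6 after MSL2 RNAi, at -0.04. Of 1292 X-linked compared genes, 486 were above 0 in CLAMP RNAi over control and 89.7% below 0 in MSL2 RNAi over control. The share with both was not counted, so the 7 are not set apart from other X-linked genes. RpS19a was at 5186 RPKM after CLAMP RNAi and 3886 after MSL2 RNAi, against 4359 in control, log2 ratios over control of 0.25 and -0.17. RpS10b was at 3552 RPKM after CLAMP RNAi and 2806 after MSL2 RNAi, against 3060 in control. For sta, RpS19a and RpS10b the 2 knockdown libraries therefore lay on opposite sides of control. RpS6, the target of S6 kinase, was at 3561 RPKM after CLAMP RNAi and 3040 after MSL2 RNAi, against 3118 in control.

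RpL17 was at 3267 RPKM after CLAMP RNAi and 2616 after MSL2 RNAi, against 2614 in control. RpL22, whose fly protein carries a long amino-terminal extension, was at 1260 RPKM after CLAMP RNAi and 1234 after MSL2 RNAi, against 1221 in control. RpL22 thus varied least among the X-linked members, and RpL17 stood apart from control only after CLAMP RNAi. RpS15Aa was at 4368 RPKM after CLAMP RNAi and 4309 after MSL2 RNAi, against 5556 in control, log2 ratios over control of -0.35 and -0.37. It had the lowest CLAMP RNAi over control ratio of the X-linked members, and the knockdown libraries differed little from each other, at -0.02. RpS5a, at 3380, 3096 and 3527 RPKM after CLAMP RNAi, after MSL2 RNAi and in control, was below control in both knockdowns.

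**Figure D3:**
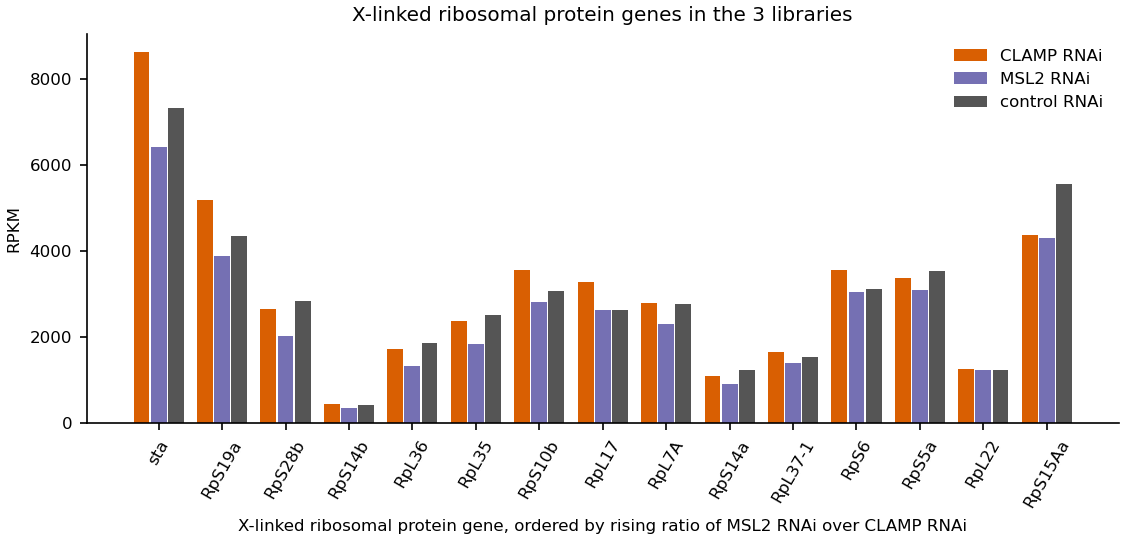
RPKM of the 15 X-linked ribosomal protein genes in the CLAMP RNAi, MSL2 RNAi and control RNAi libraries, 1 bar per library, ordered by rising ratio of MSL2 RNAi over CLAMP RNAi. The MSL2 RNAi bar is below the CLAMP RNAi bar for all 15, with the smallest gaps at RpL22 and RpS15Aa.

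Among the autosomal members the subunits were alike. The 44 large-subunit members had median log2 ratios of 0.10 after CLAMP RNAi and 0.10 after MSL2 RNAi, each over control, and the 25 small-subunit members had 0.11 and 0.12. By chromosome arm, the medians of CLAMP RNAi over control were 0.12 on 2L, 0.05 on 2R, 0.23 on 3L and 0.11 on 3R. Those of MSL2 RNAi over control were 0.09, 0.02, 0.16 and 0.19. RpS3A, the single member on chromosome 4, had 253318 reads after CLAMP RNAi and 278208 after MSL2 RNAi, against 328918 in control. Its ratios over control were 0.767 (0.763 to 0.771) after CLAMP RNAi and 0.848 (0.844 to 0.853) after MSL2 RNAi. RpS3A was therefore below control in both knockdowns, as was the median of the other 56 compared genes of chromosome 4, at log2 ratios of -0.32 and -0.35.

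Grouped by their place in the ribosome, 3 of the 4 members near the peptidyl transferase centre, where peptide bonds form, had positive log2 ratios over control in both knockdowns, where 60 and 51 of the 85 members and 37.3% and 46.6% of all compared genes did. RpL3 was at 0.12 after CLAMP RNAi and 0.16 after MSL2 RNAi, RpL8 at 0.30 and 0.38, and RpL4 at 0.44 and 0.48. RpL10, which is added late in large-subunit maturation, was the exception, at -0.37 and -0.34. The 5S rRNA partners RpL5 and RpL11 were at -0.34 and -0.00 after CLAMP RNAi and at -0.14 and 0.08 after MSL2 RNAi. The stalk proteins RpLP0, RpLP1 and RpLP2 and their neighbour RpL12, which recruit translation factors, had medians of 0.05 and 0.04 in the CLAMP and MSL2 knockdowns over control.

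The 7 members of the exit tunnel and its mouth, RpL17, RpL19, RpL23A, RpL26, RpL31, RpL35 and RpL39, had a median log2 ratio of 0.06 after CLAMP RNAi and 0.12 after MSL2 RNAi. This group held both RpL39 and RpL23A, so its members lay at opposite ends of the list. In the small subunit, RpS2, RpS3, RpS9, RpS15, RpS23 and RpS30, at the decoding site and mRNA entry, had medians of 0.07 after CLAMP RNAi and 0.12 after MSL2 RNAi. RpS5a, RpS14a, RpS14b, RpS28b, RpS3A and RpS26, at the platform and mRNA exit, had medians of -0.08 and -0.26. After MSL2 RNAi 5 of 6 were below 0, where 53.4% of all compared genes and 89.7% of X-linked ones were. Of these 6, 4 are X-linked and RpS3A is on chromosome 4, and the autosomal RpS26 was at 0.31 after MSL2 RNAi. The ubiquitin fusions, which release ubiquitin when cleaved, were at 0.04 and 0.10 for RpL40 and at -0.18 and -0.23 for RpS27A. RpS12, which flies need for the elimination of Minute cells by their neighbours, was at 0.14 after CLAMP RNAi and -0.08 after MSL2 RNAi.

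Short transcripts were set against longer ones because RpL39 and RpL38 are among the shortest members. The 6 members under 500 bases were RpL39, RpL41, RpL29, RpL38, RpL36A and RpL30, with deposited lengths of 289, 317, 380, 402, 469 and 472 bases, all autosomal. Their median log2 ratio of CLAMP RNAi over control was -0.09, against 0.10 for the 79 longer members, a difference of -0.20. The difference was -0.32 in MSL2 RNAi over control and -0.17 in MSL2 RNAi over CLAMP RNAi. Among the other compared genes the same differences were -0.05, -0.13 and -0.04, smaller than among the members in each comparison.

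These differences rested in part on a few genes. Among members of at least 400 bases only, the same differences were -0.06, -0.10 and -0.06. With no level filter they were -0.10, -0.10 and -0.06. That setting adds RpS28a and RpS28-like to the short members, with no reads and so log2 ratios of 0 by construction. It also adds RpL37-2, at 1, 3 and 1 reads after CLAMP RNAi, after MSL2 RNAi and in control. Its smaller differences therefore say nothing about expressed short members. Without RpL38 and RpL39 the difference between short and longer members was 0.02 in CLAMP RNAi over control, -0.13 in MSL2 RNAi over control and -0.17 in MSL2 RNAi over CLAMP RNAi. RpL41, the smallest ribosomal protein, had 42293 reads after CLAMP RNAi and 37249 after MSL2 RNAi, against 49178 in control. RpL29 had 11677 reads after CLAMP RNAi and 9494 after MSL2 RNAi, against 10063 in control. RpL41 was thus below control in both knockdowns, while RpL29 was above control after CLAMP RNAi and below it after MSL2 RNAi. RpL36A was above control in both, at log2 ratios of 0.22 and 0.08, and RpL30 was close to it, at 0.04 and -0.02.

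In the classes of 500 to under 750, 750 to under 1000 and at least 1000 bases, with 40, 23 and 16 members, the medians of MSL2 RNAi over control were 0.08, 0.09 and 0.08. The 34, 19 and 10 autosomal members of these classes had 0.11, 0.17 and 0.19, so these classes differed more without the members on the X chromosome and chromosome 4. The medians of CLAMP RNAi over control were 0.07, 0.11 and 0.21 over all members and 0.08, 0.13 and 0.27 over the autosomal ones, highest in the longest class. Across the 85 members the Spearman correlation of ratio with length was 0.34 in CLAMP RNAi over control, 0.27 in MSL2 RNAi over control and 0.11 in MSL2 RNAi over CLAMP RNAi. Without RpL38 and RpL39 it was 0.29, 0.22 and 0.08 over 83 members, and over the 63 autosomal members of at least 500 bases it was 0.33, 0.31 and 0.06. With mean RPKM in place of length, the Spearman correlation over the 85 members was 0.29, 0.28 and 0.22, so length was not alone in this. These are descriptions across genes of the same libraries, and the genes are not independent replicates.

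**Figure D4:**
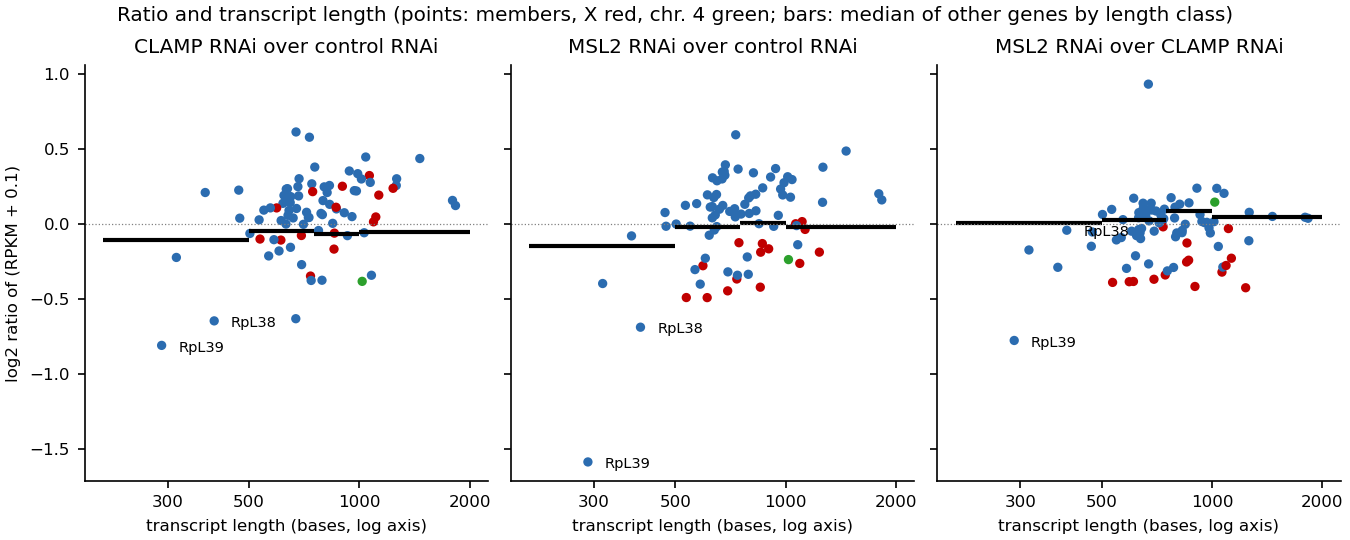
Log2 ratios of RPKM + 0.1 against transcript length (bases, log axis) in the 3 comparisons, with 1 point per ribosomal protein gene (X-linked red, chromosome 4 green, others blue) and black bars at the median of the other compared genes in 4 length classes, the last covering all transcripts of at least 1000 bases. RpL39 is the lowest point in each panel, and RpL38 is next to it in both comparisons with control.

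Among the listed members, 12 pairs were compared in which a second gene encodes a related protein, and RpS28-like was in none of them. In all 12 a single copy supplied most reads in each library, and 9 of the 12 lesser copies had at most 6.09% of the pair's reads. The 3 pairs in which the lesser copy took a larger share were RpL24, RpL34 and RpS14. RpL24-like, the fly counterpart of a yeast assembly factor of the large subunit, had 16.8% (16.65 to 17.03) of the pair's reads after CLAMP RNAi and 16.9% (16.75 to 17.11) after MSL2 RNAi, against 17.9% (17.72 to 18.14) in control. RpL34a had 18.7% (18.51 to 18.94) after CLAMP RNAi and 21.3% (21.03 to 21.49) after MSL2 RNAi, against 21.3% (21.07 to 21.56) in control. The share of RpL34a was lower after CLAMP RNAi only, where RpL34b had 100660 reads, against 83974 in control.

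RpS14a and RpS14b are neighbours on the X chromosome, and RpS14b had 22.1% (21.78 to 22.35) of their reads after CLAMP RNAi and 20.5% (20.23 to 20.84) after MSL2 RNAi, against 19.0% (18.71 to 19.23) in control. RpS14a had 63241 reads after CLAMP RNAi and 52697 after MSL2 RNAi, against 70758 in control. RpS14b had 17900, 13617 and 16562 reads in the same libraries. The copies are near-identical in coding sequence, so reads may have been placed on either, and their split is uncertain. RpL7-like, the counterpart of another yeast assembly factor, took 5.81% (5.73 to 5.90) after CLAMP RNAi and 6.09% (6.00 to 6.17) after MSL2 RNAi, against 6.05% (5.96 to 6.15) in control.

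RpS15Ab, on 2R, took 1.00% (0.960 to 1.04) of the reads shared with the X-linked RpS15Aa after CLAMP RNAi and 1.04% (0.997 to 1.08) after MSL2 RNAi, against 1.02% (0.985 to 1.06) in control. The 3 intervals overlapped, so the share of the autosomal copy did not differ between libraries beyond counting error. RpS15Ab had log2 ratios over control of -0.38 after CLAMP RNAi and -0.34 after MSL2 RNAi, close to the -0.35 and -0.37 of RpS15Aa. Whether reads of RpS15Aa were placed on RpS15Ab was not tested.

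The germline-biased copies were rare. RpS19b took 0.0443% of the reads of its pair after CLAMP RNAi and 0.114% after MSL2 RNAi, against 0.0824% in control. RpS5b, which is known from the female germline, had 19 reads after CLAMP RNAi and 65 after MSL2 RNAi, against 28 in control, a MSL2 RNAi over control ratio of 2.33 (1.47 to 3.77). RpS10a had 11 reads after CLAMP RNAi and 13 after MSL2 RNAi, against 24 in control. RpS19b and RpS5b were both highest after MSL2 RNAi and lowest after CLAMP RNAi, and RpS10a was highest in control. RpL22-like had 5, 7 and 2 reads and RpL37-2 had 1, 3 and 1 after CLAMP RNAi, after MSL2 RNAi and in control, too few for a comparison. RpL10Aa, RpS28a and RpS28-like had no read in any library, and for RpS28a a count of 0 allows up to 0.00309% of its pair's reads after CLAMP RNAi and 0.00408% after MSL2 RNAi, against 0.00290% in control.

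Of 9 germline markers, 3 passed the level threshold, aub, piwi and AGO3, and the summed level of the list was 95.3 RPKM after CLAMP RNAi and 115 after MSL2 RNAi, against 122 in control. Most of that sum was aub, piwi and AGO3, each highest in control. The markers below the threshold were all highest after MSL2 RNAi, at low counts. Among these, bgcn had 72 reads after CLAMP RNAi and 155 after MSL2 RNAi, against 60 in control. RpS19b and RpS5b were also highest after MSL2 RNAi, and were lowest after CLAMP RNAi, where the sum was lowest. The part of such markers in their levels was not tested.

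**Figure D5:**
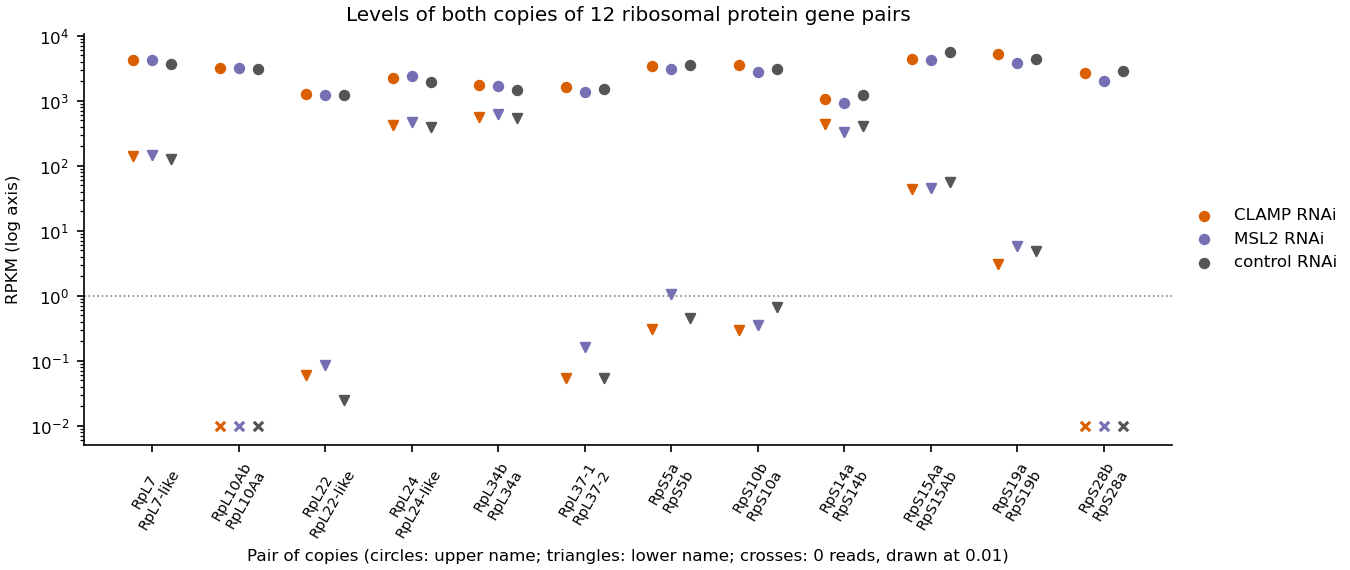
RPKM (log axis) of both copies of 12 ribosomal protein gene pairs in the CLAMP RNAi, MSL2 RNAi and control RNAi libraries, with circles for the more abundant copy, triangles for the lesser one, crosses for 0 reads (drawn at 0.01) and a dotted line at the threshold of 1 RPKM. The copies of RpL24, RpL34 and RpS14 are closest together, and 6 lesser copies have a mean below the line.

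The choice of transcript made little difference to the members' log2 ratios, but isoforms share reads in the deposited counts. Their agreement was therefore partly built in and does not show whether isoforms differed. Of the members, 45 had several annotated transcripts, and in 44 of them all transcripts gave log2 ratios within 0.1 of each other in every comparison. RpL3 was the exception, where the short RC and RD transcripts had CLAMP RNAi over control ratios of -0.00 and 0.07 and MSL2 RNAi over control ratios of 0.04 and -0.05. The RE transcript that stood for the gene was at 0.12 and 0.16. Levels depended more on the choice, with RpL3 after CLAMP RNAi at 1759 RPKM by RE and 822 RPKM by RC.

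The genes that build and serve the ribosome were compared with its proteins. Of 44 ribosome biogenesis genes none was past 1.5-fold in any of the 3 comparisons, in which 1.5 to 5.32% of all compared genes were in one direction. Their median log2 ratios were 0.03 in CLAMP RNAi over control, 0.10 in MSL2 RNAi over control and 0.13 in MSL2 RNAi over CLAMP RNAi. Fib, the methyltransferase of box C/D snoRNPs, was at 194 RPKM after CLAMP RNAi and 216 after MSL2 RNAi, against 151 in control, and the X-linked bys was at 34.7, 25.6 and 33.0. Fib was the highest of the list in both comparisons with control.

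The 36 translation factors had medians of 0.02, 0.18 and 0.13 in the same order of comparisons. Of these, eEF1alpha2, named after its values were seen, was at least 1.5-fold higher in both comparisons of MSL2 RNAi and none was 1.5-fold lower in any. It was near the threshold, at 1.08 RPKM after CLAMP RNAi and 1.91 after MSL2 RNAi, against 0.993 in control. Rack1, a protein bound to the small subunit, was at 3030 RPKM after CLAMP RNAi and 3205 after MSL2 RNAi, against 2440 in control, so its level lay within the members' range. Its log2 ratios over control, 0.31 and 0.39, were above the members' upper quartiles of 0.22 and 0.20. The factor on chromosome 4, eIF4G1, was below control in both knockdowns, at log2 ratios of -0.34 and -0.34.

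The 71 mitochondrial ribosomal protein genes, whose products form a separate ribosome, had medians of -0.02 in CLAMP RNAi over control, 0.04 in MSL2 RNAi over control and 0.08 in MSL2 RNAi over CLAMP RNAi. The 11 of them on the X chromosome had medians of -0.06, -0.34 and -0.33, beside 0.05, -0.19 and -0.32 for the X-linked cytosolic members. At least 1.5-fold lower were mRpL33 and mRpS5, 2 of 71, in CLAMP RNAi over control and mRpL33, 1 of 71, in MSL2 RNAi over control, where 3.86% and 5.32% of all compared genes were. The X-linked mRpL33 had the lowest ratio in both, at log2 ratios of -0.74 and -1.21 from 135 reads after CLAMP RNAi and 96 after MSL2 RNAi, against 226 in control.

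The 11 genes of the RNA polymerase I and III machinery had medians of -0.07, 0.00 and 0.10. Trf2, a TBP-related factor that also serves ribosomal protein promoters in flies, was at 11.6 RPKM after CLAMP RNAi and 8.83 after MSL2 RNAi, against 14.3 in control. It is X-linked and was the only gene of that list past 1.5-fold, at a log2 ratio of -0.69 in MSL2 RNAi over control. The 17 growth and stress regulators had medians of -0.11, -0.01 and 0.06, with Irbp18 at least 1.5-fold lower in CLAMP RNAi over control and higher in MSL2 RNAi over CLAMP RNAi, and Trf2, which is on both lists, lower in MSL2 RNAi over control. Myc, an X-linked driver of ribosome production, was at 60.2 RPKM after CLAMP RNAi and 45.2 after MSL2 RNAi, against 67.0 in control. Xrp1, a factor induced in Minute cells, was at 226 RPKM after CLAMP RNAi and 286 after MSL2 RNAi, against 211 in control, and its partner Irbp18 was at 19.0, 28.7 and 29.5. Trf2 and Myc were lowest after MSL2 RNAi. Any link of these levels to those of the ribosomal protein genes was not tested.

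Of 7 snoRNA host genes, 5 passed the level threshold, with medians of -0.01, -0.07 and 0.02. Uhg4, named after its values were seen and at a mean of 1.04 RPKM, was at least 1.5-fold lower in CLAMP RNAi over control and higher in MSL2 RNAi over CLAMP RNAi. The list includes Uhg2, at 5.76 RPKM after CLAMP RNAi and 4.99 after MSL2 RNAi, against 5.26 in control. The summed level of the hemocyte markers was 2772 RPKM after CLAMP RNAi and 2448 after MSL2 RNAi, against 1896 in control. Most of that sum was Col4a1, a basement membrane collagen, at 1668 RPKM after CLAMP RNAi and 1640 after MSL2 RNAi, against 1346 in control. Pxn, a secreted peroxidasin, added 860 and 564, against 326 in control. Hml was at 30.0 and 29.0, against 14.9 in control, and Ppn at 33.5 and 40.1, against 23.0 in control. He ran the other way, at 22.1 and 26.6, against 40.6 in control, and srp, ush and NimC1 had log2 ratios over control between -0.04 and 0.23. The part of these markers in the share of ribosomal protein reads was not tested. Of the markers of other tissues, 2 of 5 for neurons and glia, 2 of 5 for muscle and 0 of 4 for the fat body passed the threshold. Their summed levels were 12.2, 13.1 and 13.4 RPKM for neurons and glia, 10.7, 9.91 and 10.6 for muscle, and 0.315, 0.429 and 0.314 for the fat body, each after CLAMP RNAi, after MSL2 RNAi and in control. The roX1 RNA of the MSL complex was at 270 RPKM after CLAMP RNAi and 102 after MSL2 RNAi, against 303 in control.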

How the data were processed

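The mRNA libraries of SL2 cells were compared, 1 each for CLAMP RNAi, MSL2 RNAi and control RNAi. The submitters' processing notes name Bowtie, an aligner, and the dm3 build. Bowtie's version, the counting method, the gene models and strand handling were not given in the sources used here. Files deposited by the authors list 22353 transcripts with an RPKM value, a whole read count, a length and the library total. The deposited RPKM equals the deposited count divided by length and total, as recomputed here. Summed counts are 2.07, 2.03 and 2.05 times the totals after CLAMP RNAi, after MSL2 RNAi and in control, since isoforms share reads. The transcript with most reads therefore stood for each gene, and these hold 95.0 to 95.6% of the totals, if both are in the same unit. Reads of near-identical copies and of overlapping or antisense genes could not be told apart.

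Symbols and arms came from a Release 6 annotation table, which matched 13783 genes by locus tag and 749 by synonym and left 607 unmatched. All 92 members matched by locus tag. The files' build differs, so no coordinates are given. Genes with a mean of at least 1 RPKM were compared as log2 ratios of RPKM + 0.1, and ratios of plain RPKM carry exact Clopper-Pearson intervals conditional on the totals. With 1 library per group, calls mean a ratio past 1.5-fold. Named are all X-linked members, the 6 lowest and 6 highest per comparison, paralogs, role groups, members nearest the threshold, and up to 3 genes per list. More were named for the hemocyte and germline markers and the growth and stress regulators. Members and lists were chosen with earlier results of these data known. Nob1, TfIIIA, Maf1, eIF2gamma, larp and Sxl were unmatched in the annotation table and are not analysed here. One member entered all sets but is not reported here by name. The calculations were tested on simulated data.

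Alternatives were other pseudocounts, level filters, length bounds and fold limits, centring by autosomal genes, level or length class, and scaling with edgeR 4.0.16 (TMM) and DESeq2 1.42.0 in R 4.3.3. Python 3.11.15, pandas 2.3.3, numpy 2.4.6, SciPy 1.17.1 and matplotlib 3.10.9 were used.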

Additional observations from a re-analysis of the deposited data

How the results depend on the processing

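A median, or a difference of medians, counted as moved beyond 0.05 on the log2 scale, a count beyond 1.5 times, a share outside its counting interval, and a single gene on crossing 1.5-fold. By these limits 207 values of sets stayed, 61 moved and 5 changed sides of their null value, and of single genes 174 stayed and 6 moved. The median of CLAMP RNAi over control was 0.15 with autosomal centring and 0.16 with TMM and with DESeq2 scaling, and that of MSL2 RNAi over control 0.0096 with level centring. In MSL2 RNAi over CLAMP RNAi it was -0.11, -0.087 and -0.085 with autosomal, TMM and DESeq2 scaling. Without paralogs the X-linked minus autosomal difference in CLAMP RNAi over control was -0.0019. The X-linked over autosomal quotient of levels crossed 1 after CLAMP RNAi, at 1.06 with no level filter, 1.01 with the longest transcripts and 1.02 without paralogs, and in control, at 0.974 without paralogs. With no filter it was 0.898 after MSL2 RNAi and 1.18 in control. That setting raises it in every library, because only autosomal members below the threshold are added. The quotient was lowest after MSL2 RNAi in every setting run.

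The short minus longer difference was, in CLAMP RNAi over control, MSL2 RNAi over control and MSL2 RNAi over CLAMP RNAi, -0.10, -0.10 and -0.061 with no filter, -0.064, -0.10 and -0.058 from 400 bases up, -0.13, -0.19 and -0.11 with length centring and -0.32, -0.48 and -0.28 with the bound at 400 bases. With the bound at 600 bases it was -0.14 in CLAMP RNAi over control. The setting with no filter adds short members with few or no reads, which draw the median of the short members towards 0. Leaving out RpL39, or RpL38 and RpL39, was chosen after seeing the data. Without RpL39 the difference was -0.064 in CLAMP RNAi and -0.16 in MSL2 RNAi over control, and without both it changed sign to 0.021 in CLAMP RNAi and was -0.13 in MSL2 RNAi over control.

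In CLAMP RNAi over control the members at least 1.5-fold lower numbered 1 with DESeq2 scaling, 2 with a pseudocount of 1, from 5 RPKM or 400 bases up, without paralogs, or with autosomal, TMM, length or level centring, and 4 with no filter, and those higher 2 with autosomal, TMM, DESeq2 or length centring and 0 with level centring. In MSL2 RNAi over control the lower members numbered 1 from 400 bases up or with length centring, and the higher ones 3 with no filter and 0 with autosomal or level centring. In MSL2 RNAi over CLAMP RNAi the lower members numbered 0 from 400 bases up, and the higher ones 3 with no filter and 0 from 5 RPKM up or without paralogs. At 2-fold the lower members numbered 0, 1 and 0 in the 3 comparisons and the higher ones 0 in each. RpL18 passed 1.5-fold in CLAMP RNAi over control with TMM or DESeq2, at a log2 ratio of 0.64, and RpL38 missed it with DESeq2, at -0.58.

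From 400 bases up, the share of reads on members was 20.3, 19.8 and 18.8% after CLAMP RNAi, after MSL2 RNAi and in control. Without paralogs it was 17.3, 17.1 and 16.0% in the same libraries. A share within a library does not depend on scaling between libraries. Multiplied by each library's scaling factor, the shares of all members became 21.0, 19.6 and 18.6% with TMM and 20.9, 19.6 and 18.6% with DESeq2. With autosomal centring they became 21.2 and 19.5% in the knockdowns. These products were counted as moved although the reads on members were the same. The causes were not tested, apart from the smaller lists and stricter limits themselves. No paired analysis was possible because each group has 1 mRNA library and the labels give no replicate numbers. Depth limits the members under 300 reads, RpS19b and the copies below the threshold.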

Other observations

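A pattern noticed after the values were seen concerns members near the centromere. In the gene order of the Release 6 table, 5 autosomal members lie within 100 protein-coding genes of the centromeric end of their arm. RpL15 and RpL10 are on 3L, RpL5 and RpL21 on 2L and RpL38 on 2R. All 5 were below control after CLAMP RNAi, at log2 ratios of -0.06 for RpL15, -0.37 for RpL10, -0.34 for RpL5, -0.16 for RpL21 and -0.65 for RpL38. After MSL2 RNAi the same genes were at 0.18, -0.34, -0.14, -0.02 and -0.69 relative to control. The next autosomal members from a centromere, RpLP0, RpL35A and RpL13A, were at 0.26, 0.25 and 0.27 after CLAMP RNAi. Of 191 other compared genes in the same centromeric stretches, 160 were below control after CLAMP RNAi, with a median of -0.17, and 128 after MSL2 RNAi, with a median of -0.12. On chromosome 4, CLAMP RNAi left 53 and MSL2 RNAi 52 of the 56 other compared genes below control. Among all compared genes the shares were 62.7% and 53.4%. The members near centromeres were thus on the same side of control as most of their neighbours after CLAMP RNAi, in single libraries and with no test.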
